A study of Homo sapiens with 16 samples.

Results

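Long noncoding RNAs (lncRNAs) are transcripts that encode no protein, and some of them are made from promoters of their own, far from the start of any protein-coding gene. Sites bound by hypoxia-inducible factor (HIF) at such promoters were collected here from 16 ChIP-seq peak lists. Peaks sharing 1 bp or more were joined across all libraries into 11664 sites, and a site was taken as an lncRNA promoter site when its centre lay within 1000 bp of the start of an lncRNA transcript and more than 5000 bp from the start of every protein-coding transcript (GENCODE release 44 on GRCh37). In all, 485 of the 11664 sites met the rule. For comparison, 5320 sites lay within 1000 bp of a protein-coding start, and 4882 sites, called distal, lay over 5000 bp from every protein-coding start and over 1000 bp from every lncRNA start.

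The lists came from 4 established human cancer cell lines, A549 (lung), HCT116 (colorectal), PC3 (prostate) and T47D (breast), all kept in 0.5% oxygen for 16 h before chromatin was precipitated with an antibody against HIF-1α or HIF-2α. Each of the 8 groups, a cell line with an antibody, had 2 replicate libraries, and no normoxic library was analysed here. Lists held between 275 and 4505 peaks. The read depth behind them is unknown, so a site with no peak in a library may lie below the peak caller's threshold there. The 2 replicates of PC3 HIF-2α were the most unequal, with 275 and 1290 peaks. No expression was measured in these libraries, so neither the cell lines nor transcription of the lncRNAs could be checked.

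HIF is a heterodimer of an oxygen-regulated α subunit, HIF-1α or HIF-2α (called isoforms below), and the constitutive HIF-1β. It binds the hypoxia response element, whose core is written RCGTG and reads ACGTG or GCGTG. Several lncRNAs are known from hypoxic cells. MIR210HG is the primary transcript of the microRNA miR-210, which is induced by hypoxia in most cell types, NEAT1 is the RNA scaffold of nuclear paraspeckles, and HIF1A-AS3 is transcribed from the strand opposite HIF1A, the gene of HIF-1α itself.

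The DNA at the centres of the most recurrent sites is shown first, because the core motif is the sequence through which HIF is known to contact DNA. Each window spans 200 bp around the median centre of the site's best peak in each library, is read from the plus strand of GRCh37, and shows in capitals ACGTG, or GCGTG where the motif starts with G, with CACGT and likewise CACGC on the other strand. Overlapping matches were counted separately. The first 3 sites, with a peak in all 16 libraries, are HIF1A-AS3 (chr14:62217874-62218073), ENSG00000234292 (chr5:90576357-90576556) and ENSG00000286505 (chr15:85458199-85458398).
HIF1A-AS3: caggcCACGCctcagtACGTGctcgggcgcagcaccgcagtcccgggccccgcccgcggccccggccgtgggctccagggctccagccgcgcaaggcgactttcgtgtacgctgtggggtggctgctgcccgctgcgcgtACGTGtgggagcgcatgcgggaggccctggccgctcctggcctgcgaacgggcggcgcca
ENSG00000234292: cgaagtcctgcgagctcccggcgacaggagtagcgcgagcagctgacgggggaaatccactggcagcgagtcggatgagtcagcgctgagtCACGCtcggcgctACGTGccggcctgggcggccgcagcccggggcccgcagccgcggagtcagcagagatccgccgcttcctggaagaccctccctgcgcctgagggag
ENSG00000286505: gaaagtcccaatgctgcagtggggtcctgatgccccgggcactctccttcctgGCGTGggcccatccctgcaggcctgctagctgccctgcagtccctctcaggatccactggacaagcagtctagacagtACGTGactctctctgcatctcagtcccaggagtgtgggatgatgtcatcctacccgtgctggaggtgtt

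The windows of MIR210HG (chr11:568622-568821) and NEAT1 (chr11:65189821-65190020) are shown as the sites of the best-known lncRNAs.
MIR210HG: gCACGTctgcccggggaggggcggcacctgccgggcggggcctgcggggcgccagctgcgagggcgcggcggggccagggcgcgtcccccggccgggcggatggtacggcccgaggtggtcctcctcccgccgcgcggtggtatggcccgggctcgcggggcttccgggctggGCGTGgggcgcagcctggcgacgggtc
NEAT1: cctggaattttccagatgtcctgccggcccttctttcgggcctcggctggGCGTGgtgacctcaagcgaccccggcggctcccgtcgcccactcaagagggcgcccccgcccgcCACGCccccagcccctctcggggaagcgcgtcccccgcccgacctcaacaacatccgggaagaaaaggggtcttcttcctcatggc

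The next pair held peaks of a single isoform. SEPTIN7P9 (chr10:38691400-38691599) had 6 HIF-1α libraries and LINC01186 (chrX:46187080-46187279) had 6 HIF-2α libraries, in both cases with no peak of the other antibody.
SEPTIN7P9: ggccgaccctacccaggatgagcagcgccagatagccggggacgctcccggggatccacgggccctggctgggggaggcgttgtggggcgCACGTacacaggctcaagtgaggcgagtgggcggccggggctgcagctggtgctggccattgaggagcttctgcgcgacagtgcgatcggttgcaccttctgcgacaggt
LINC01186: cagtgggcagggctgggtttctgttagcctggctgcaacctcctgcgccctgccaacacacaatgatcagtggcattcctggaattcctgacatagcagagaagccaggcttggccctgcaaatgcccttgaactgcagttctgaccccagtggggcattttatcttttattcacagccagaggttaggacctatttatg

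The HIF1A-AS3 window held 3 matches, those of ENSG00000234292, ENSG00000286505, MIR210HG and NEAT1 held 2 each, and SEPTIN7P9 held 1. LINC01186 held 0 in its window and 1 in the whole merged site. The windows also differed in CpG dinucleotides, from 30 in MIR210HG and 27 in HIF1A-AS3 to 4 in ENSG00000286505 and 1 in LINC01186.

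The 485 sites were shared unequally among isoforms. A HIF-1α peak with no HIF-2α peak in any library was found at 275 sites (56.7%, Wilson 95% interval 52.3 to 61.0), against a background of 60.9% of all merged sites. A HIF-2α peak with no HIF-1α peak was found at 119 sites (24.5%, 20.9 to 28.6; background 25.2%). Peaks of both isoforms were found at 91 sites (18.8%, 15.5 to 22.5; background 13.8%). The first 2 shares were near the background. They depended on list length, and with the 272 best peaks of each library they were 25.3% (background 27.8%) and 46.8% (background 54.9%). Sites at protein-coding promoters were HIF-1α only in 81.6% and HIF-2α only in 4.15%, and distal sites in 40.5% and 47.3%. These shares pool libraries of unequal list length, the intervals cover counting error only, and sites are not replicates, so no test was made on them.

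**Figure D1:**
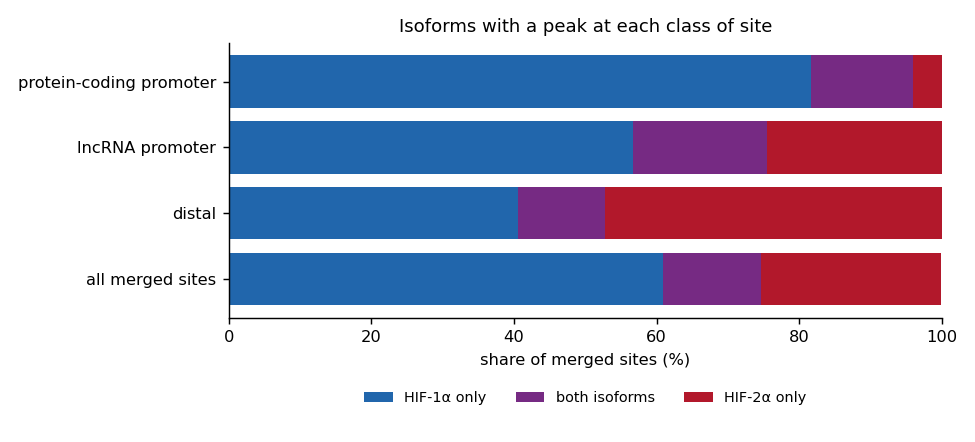
Share of merged sites (x axis, %) with a HIF-1α peak only (blue), peaks of both isoforms (purple) or a HIF-2α peak only (red), for 4 sets of sites (y axis). The HIF-2α-only share was 4.15% at protein-coding promoters, 24.5% at lncRNA promoters and 47.3% at distal sites.

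By group, the number of lncRNA promoter sites with a peak in either replicate was 275 in HCT116 HIF-1α, 169 in PC3 HIF-1α, 96 in A549 HIF-2α, 91 in PC3 HIF-2α, 78 in HCT116 HIF-2α, 50 in T47D HIF-1α, 39 in A549 HIF-1α and 26 in T47D HIF-2α. This order largely followed the length of the lists. A549 was the cell line where HIF-2α had more such sites than HIF-1α. All 39 sites of A549 HIF-1α had a peak in another group as well, where 16.3% of all merged sites of that group had none. A peak in no other group was found at 154 of the 275 sites of HCT116 HIF-1α (56.0%; background 60.3%) and at 37 of the 96 sites of A549 HIF-2α (38.5%; background 52.6%). It was found at 32.1% of the sites of HCT116 HIF-2α (background 51.7%), 29.6% of PC3 HIF-1α (35.8%), 34.1% of PC3 HIF-2α (36.2%), 28.0% of T47D HIF-1α (22.8%) and 13 of 26 sites of T47D HIF-2α (68.7%).

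Most sites recurred little. A peak in 1 library only was found at 52.8% of the 485 sites (background 59.5%), and peaks in both replicates of at least 1 group at 183 sites (37.7%; background 31.7%). Peaks in 1 cell line only were found at 344 sites (70.9%; background 76.6%), in 2 lines at 82 (16.9%; background 15.7%), in 3 lines at 43 (8.87%; background 5.02%) and in all 4 lines at 16 (3.30%; background 2.76%). At the other end, 20 sites (4.12%; background 2.69%) had peaks in 8 or more libraries. Of these, 3 had a peak in all 16 libraries, 1 in 15, 2 in 14, 2 in 13, 1 in 12, 2 in 11 and 3 in 10.

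Within the 1000 bp allowed by the rule, the sites clustered at the lncRNA start. The absolute distance from site centre to start had a median of 213 bp (quartiles 81.0 and 408), and 416 sites (85.8%) spanned the start itself. Centres were upstream of the start at 247 sites (50.9%). Sites of both isoforms spanned the start in 93.4%, HIF-1α-only sites in 90.5% and HIF-2α-only sites in 68.9%, and the median distances were 236, 178 and 250 bp. HIF-2α-only sites were also narrower, with a median merged width of 905 bp against 1278 bp for HIF-1α-only sites and 1766 bp for sites of both. Width and spanning of the start also moved with the number of libraries. They were 1047 bp and 79.3% at sites with 1 library, and 1694 bp and 97.7% at those with 4 or more. Before merging, median widths of HIF-2α member peaks were below those of HIF-1α in HCT116 (739 and 912 against 1328 and 1239.5 bp). The same held in T47D (589 and 728 against 1237 and 1177 bp), and the libraries overlapped in A549 and PC3. The part of merging in the isoform difference was not tested.

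**Figure D2:**
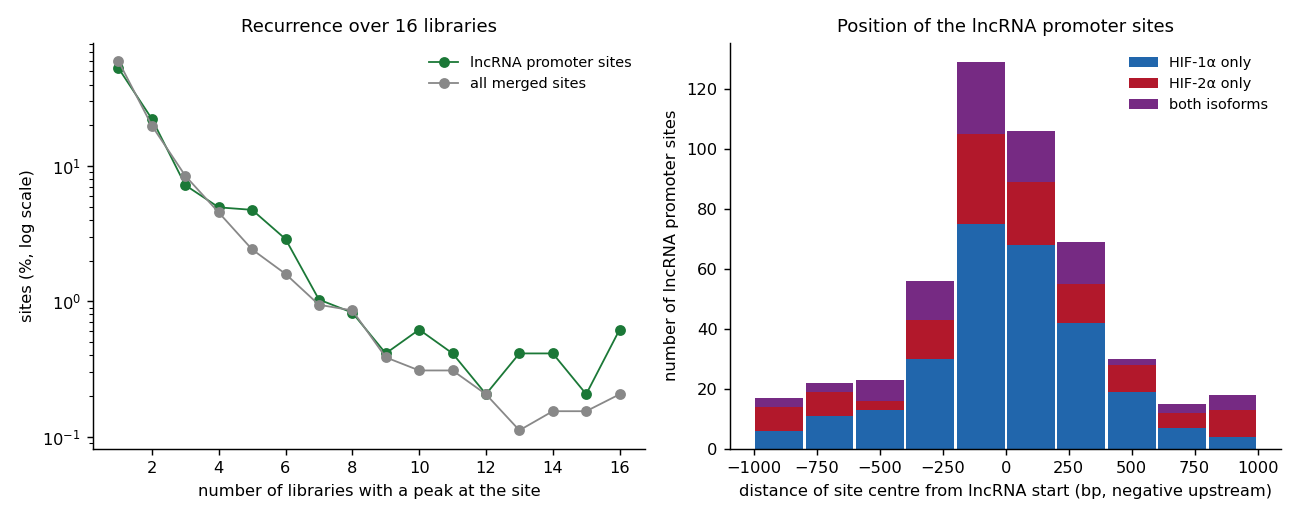
Left, share of sites (y axis, %, log scale) by the number of libraries with a peak (x axis) for lncRNA promoter sites (green) and all merged sites (grey); 52.8% and 59.5% had a peak in 1 library. Right, number of lncRNA promoter sites (y axis) by distance of the site centre from the lncRNA start in bins of 200 bp (x axis, bp), coloured by isoform; the counts peaked on both sides of the start.

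The values just inside and just outside the limits were as follows. ENSG00000224794 was kept at 999 bp from the lncRNA start and MIR130AHG was left out at 1003 bp. ENSG00000288844 was kept at 5013 bp from a protein-coding start and ENSG00000260740 was left out at 4901 bp.

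Little is known of most of the lncRNAs. The 485 sites named 470 genes, which is 3.38% of the 13924 lncRNA genes with a start over 5000 bp from every protein-coding start. At 52.8% of sites the gene had an identifier and no symbol, and at 110 (22.7%) it had a LINC symbol, given to lncRNAs that lie between genes. At 45 sites (9.28%) it was named for a neighbouring gene, as antisense, intronic, overlapping or divergent transcript. A further 13 sites belonged to named microRNA host genes and 5 to small nucleolar RNA host genes. Starts of more than 1 lncRNA gene lay within 1000 bp of 72 sites (14.8%), where the named gene is the nearest. Not all sites were intergenic, as 83 of 485 (17.1%) lay inside a protein-coding gene, and at 64 of these that gene was on the strand opposite the lncRNA only. A position inside a protein-coding gene was found at 25.2% of HIF-2α-only sites, 16.0% of HIF-1α-only sites and 9.89% of sites of both isoforms.

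It was next asked whether the antibodies differed in how much of each list lay at lncRNA promoters. Member peaks made up 4.03% to 6.68% of the peaks of a library. In A549 the share was 5.26% and 5.72% in the HIF-1α libraries and 6.01% and 6.06% in the HIF-2α libraries. In HCT116 it was 4.69% and 4.22% with HIF-1α and 4.92% and 4.99% with HIF-2α. In PC3 it was 4.82% and 4.49% with HIF-1α and 5.51% and 6.68% with HIF-2α. The groups did not overlap in these 3 lines, with HIF-1α the lower. In T47D they overlapped, at 5.12% and 4.23% with HIF-1α and 4.03% and 4.72% with HIF-2α. The mean difference over the 4 lines was -0.55 percentage points (SD over lines 0.714). An exact two-sided permutation of the antibody labels among the 4 libraries of each line gave p = 0.0648 for it (adjusted p = 0.114, Benjamini-Hochberg over 11 tests), which did not pass the threshold of 0.05. Counting each gene by a single start turned the difference to 0.80 percentage points (exact permutation p = 0.0123), so its direction depended on which starts were used.

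The isoforms differed once only promoter peaks, those at lncRNA or protein-coding promoters, were counted. In A549, member peaks were 9.71% and 9.92% of promoter peaks in the HIF-1α libraries and 29.4% and 22.2% in the HIF-2α libraries. HCT116 gave 6.39% and 5.92% with HIF-1α against 12.9% and 13.6% with HIF-2α. PC3 gave 7.44% and 6.59% against 26.8% and 20.5%. In T47D the HIF-1α libraries stood at 7.20% and 6.06% and the HIF-2α libraries at 18.7% and 18.5%. Every HIF-2α library was above both HIF-1α libraries of its line. HIF-1α minus HIF-2α averaged -12.9 percentage points (SD over lines 4.40), in the same direction in 4 of 4 lines (exact permutation p = 0.00154, the smallest the test can give, and adjusted p = 0.00424). The denominators moved with it, since HIF-1α libraries held between 186 and 3092 peaks at protein-coding promoters and HIF-2α libraries between 41 and 419.

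The order was the opposite among peaks away from protein-coding promoters, meaning member and distal peaks. Of these, member peaks were 11.9% and 14.7% in A549 with HIF-1α, compared with 7.90% and 8.79% for its HIF-2α libraries. The shares were 19.7% and 16.4% against 8.96% and 8.67% for HCT116, and 14.6% and 15.3% against 7.14% and 10.6% for PC3. For T47D they were 18.4% and 14.9% with HIF-1α and 5.36% and 6.80% with HIF-2α. No HIF-2α library reached a HIF-1α library of its line. HIF-1α minus HIF-2α averaged 7.71 percentage points (SD over lines 2.63; exact permutation p = 0.00154, adjusted p = 0.00424). This comparison was added after the first had been seen and is not independent of it. With a similar member share of all peaks, a lower share at protein-coding promoters goes with a higher distal share.

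**Figure D3:**
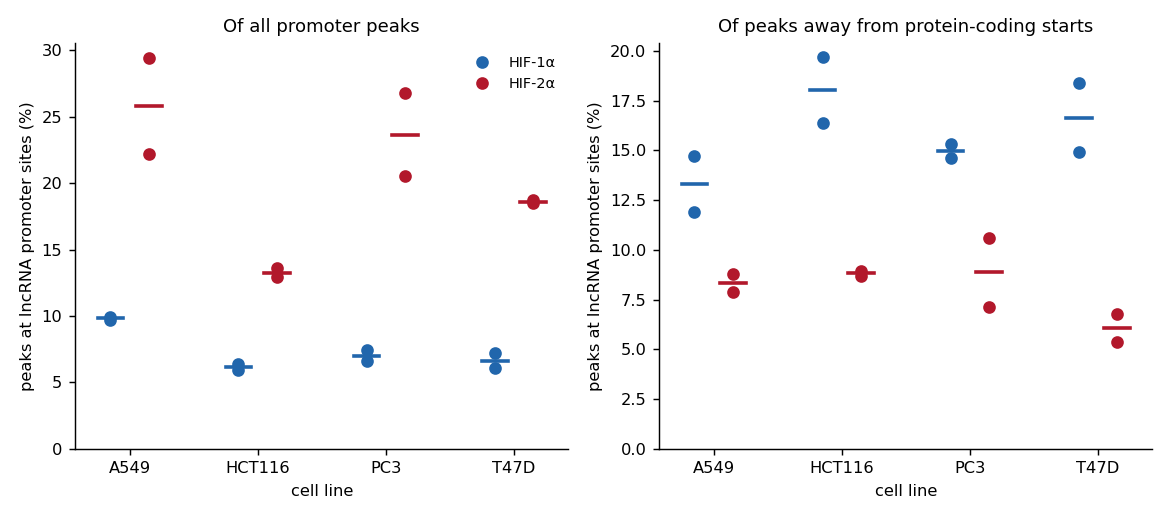
Peaks at lncRNA promoter sites (y axis, %) as a share of all promoter peaks (left) and of peaks away from protein-coding starts (right), by cell line (x axis); points are single libraries and lines the means of 2. HIF-2α (red) was above HIF-1α (blue) in every line on the left and below it in every line on the right.

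The score given to each peak by the peak caller was turned into a percentile within its own list, because scores cannot be compared between lists of different depth. The median percentile of member peaks lay between 48.0 and 68.4 over the 16 libraries, with a mean of 56.8 ± 6.11 (SD, n = 16). It was 55.7 ± 5.68 for peaks at protein-coding promoters and 42.5 ± 5.54 for distal peaks of the same lists. Member peaks ranked above distal peaks in 16 of 16 libraries, by 14.3 percentile points on average (two-sided exact sign-flip permutation test over libraries, p = 3.05e-05, the smallest the test can give, and adjusted p = 0.000336). The 2 libraries of a group may not be independent units, and with the 8 groups as units the exact sign-flip permutation gave p = 0.00781. Member peaks did not differ detectably from protein-coding promoter peaks (1.05 points, SD over libraries 6.66, higher in 10 of 16, exact permutation p = 0.530). The difference from distal peaks no longer passed among peaks at or above the median score of all libraries (4.37 points, exact permutation p = 0.166) or among the 272 best peaks of each library (1.61 points, exact permutation p = 0.624). Both subsets were chosen on the score itself, which narrows the range of ranks, so they do not show which peaks the difference came from.

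Between isoforms, the median percentile of member peaks in A549 was 59.9 ± 5.24 with HIF-1α and 54.1 ± 0.426 with HIF-2α (SD, n = 2 libraries here and below). HCT116 showed the reverse, at 51.2 ± 4.60 for HIF-1α and 66.5 ± 2.58 for HIF-2α. PC3 stood at 53.7 ± 3.62 for HIF-1α against 56.3 ± 2.21, and T47D at 50.3 ± 1.07 against 62.3 ± 5.91. HIF-1α was thus the lower in 3 of 4 lines and overlapped HIF-2α in PC3. The mean difference of -6.02 points did not pass (exact permutation p = 0.0725, adjusted p = 0.114). Without A549 it was -9.55 (exact permutation p = 0.0185), and without replicate 2 of A549 HIF-1α alone -6.95 (exact permutation p = 0.0262).

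Replicates were compared by the share of peaks that overlapped a peak of the other replicate of the group. For member peaks this was 68.7% in A549 HIF-2α, 61.2% in HCT116 HIF-1α, 60.7% in A549 HIF-1α, 59.5% in T47D HIF-2α, 55.1% in T47D HIF-1α, 52.3% in HCT116 HIF-2α, 50.4% in PC3 HIF-1α and 19.8% in PC3 HIF-2α. PC3 HIF-2α was below the rest in all 3 classes of site. Member peaks were recovered more often than distal peaks in 7 of 8 groups, by 14.5 percentage points on average (exact sign-flip permutation over groups, p = 0.0156, adjusted p = 0.0344). Against protein-coding promoter peaks the difference was 3.28 points (SD over groups 6.86; exact permutation p = 0.242). Among peaks at or above the median score the difference from distal peaks was 3.62 points and did not pass (exact permutation p = 0.297).

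The core motif was a property that the rule did not use. Among the 485 sites, 276 (56.9%) held ACGTG or GCGTG on either strand in the 200 bp at their centre. For comparison, 13924 lncRNA genes had a start over 5000 bp from every protein-coding start. Of these starts, 1 per gene, 24.9% held the motif in the surrounding 200 bp, bound or not. Of the 485 sites, 48.2% held it in the 200 bp around their own lncRNA start. CpG number was not matched between these starts. The share in the central 200 bp was 75.8% (Wilson 95% interval 66.1 to 83.5) at sites of both isoforms, 55.6% (49.7 to 61.4) at HIF-1α-only sites and 45.4% (36.7 to 54.3) at HIF-2α-only sites. It was 49.2% at sites with a peak in 1 library, 57.3% at those with 2 or 3 and 79.1% at those with 4 or more. The number of CpG in the central 200 bp moved with these shares. Its median was 8 at sites with 1 library and 16.0 at those with 4 or more, and 4 at HIF-2α-only sites, 15.0 at HIF-1α-only sites and 14.0 at sites of both. Its part in them was not tested here.

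Taken library by library, 67.7% ± 12.1 of member peaks (SD, n = 16) held the motif in their central 200 bp, against 69.4% ± 6.04 of protein-coding promoter peaks and 51.5% ± 7.67 of distal peaks. The excess over distal peaks was 16.2 percentage points, present in 15 of 16 libraries (exact sign-flip permutation, p = 0.000122, adjusted p = 0.000671). The exception was replicate 2 of A549 HIF-2α, with 49.4% of 83 member peaks and 53.8% of distal peaks. With the 8 groups as units, the exact sign-flip permutation gave p = 0.0156 for the excess over distal peaks. The difference from protein-coding promoter peaks was -1.76 points (SD over libraries 10.0; exact permutation p = 0.499).

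The letters of the motif include CpG, and the classes differed in CpG content. The central 200 bp held 13.1 ± 3.08 CpG in member peaks, 19.6 ± 1.79 at protein-coding promoters and 5.92 ± 1.76 in distal peaks (mean of the library means ± SD, n = 16). When the motif share expected from windows 5000 bp to either side with the same number of CpG was subtracted, the excess over distal peaks was 3.93 points and no longer passed (exact permutation p = 0.185). Without that subtraction, the excess over distal peaks did not pass among peaks at or above the median score (4.19 points, exact permutation p = 0.138). Among the 272 best peaks of each library it was 13.4 points and passed (exact permutation p = 0.00156). The 2 score cuts thus gave different calls. Between isoforms the share in member peaks did not differ detectably (4.45 points, SD over lines 19.8; exact permutation p = 0.478).

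**Figure D4:**
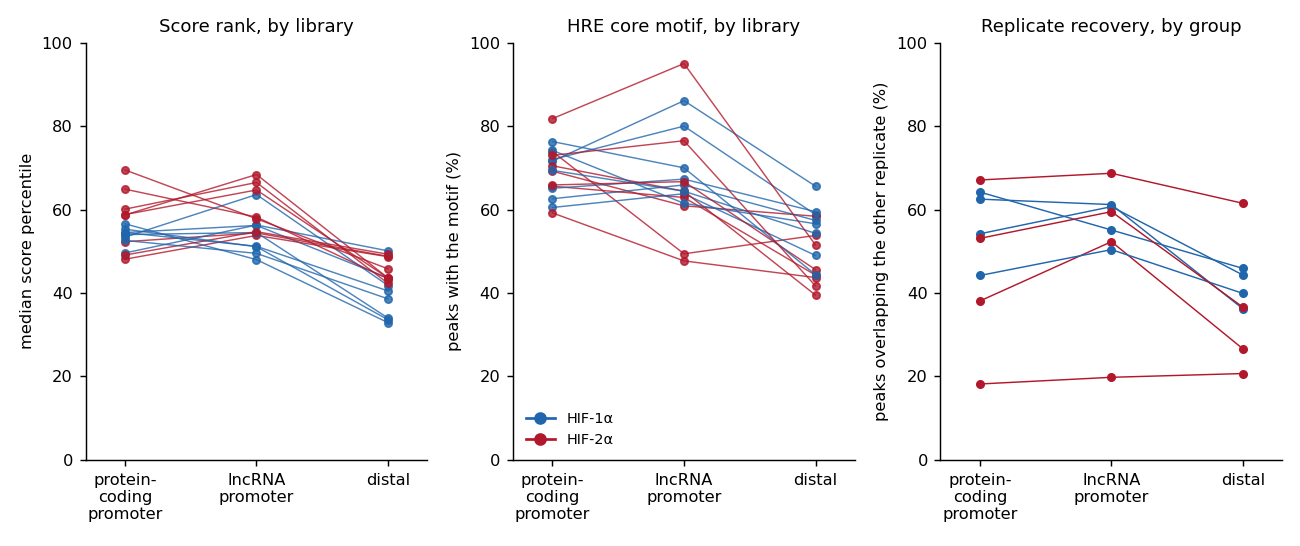
Median score percentile (left, y axis), share of peaks with the core motif (middle, %) and share of peaks overlapping the other replicate (right, %) for 3 classes of site (x axis); each line joins the values of 1 library, or of 1 group on the right, with HIF-1α blue and HIF-2α red. Member peaks ranked above distal peaks in 16 of 16 libraries.

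The strongest and most recurrent site belonged to HIF1A-AS3 (chr14:62217294-62218864), 198 bp upstream of the lncRNA start and 11059 bp from the start of SNAPC1, which encodes a subunit of the small nuclear RNA activating complex. Its peak was in the top few percent of every list, between the 96.6th and 99.9th percentile with HIF-1α (median 99.6) and between the 99.2nd and 99.8th with HIF-2α (median 99.5). The score was lowest, at 402.5, in replicate 1 of PC3 HIF-2α and highest, at 3092.9, in replicate 2 of PC3 HIF-1α. In A549 the ranks did not overlap, at 96.6 and 97.8 with HIF-1α and 99.2 and 99.4 with HIF-2α. In the other lines all were at 99.2 or above, close to the top of the scale, where a percentile cannot show a difference. The median score was 1885.4 with HIF-1α and 935.7 with HIF-2α, on lists whose depth is unknown.

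The 2 other sites with a peak in all 16 libraries belonged to genes known only by identifier. ENSG00000234292 (chr5:90575464-90577982) lay 102411 bp from ARRDC3, an arrestin-domain gene, and ranked at the 99.8th and 99.9th percentile in A549 HIF-2α, against 92.1 and 93.5 in A549 HIF-1α. In T47D it was weaker, at 72.9 and 78.5 with HIF-1α and 69.5 and 48.6 with HIF-2α. T47D was thus below the other lines with both antibodies. ENSG00000286505 (chr15:85457404-85459075) lay in an exon of its lncRNA and inside SLC28A1, a nucleoside transporter gene. Its percentile was between 74.1 and 96.0 with HIF-1α and between 46.9 and 95.7 with HIF-2α.

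ENSG00000231881 (chr6:44039988-44042331) had a peak in 15 libraries, all but replicate 1 of PC3 HIF-2α. The percentile was between 91.9 and 99.7 in the HIF-1α libraries and between 38.1 and 97.1 in the HIF-2α libraries, with medians of 96.8 and 79.4. In every line both HIF-1α libraries ranked above both HIF-2α libraries where those had a peak. Its central window held 0 matches to the core motif, and the whole site 5.

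MIR210HG (chr11:567150-570215), the host of miR-210, had peaks in 8 HIF-1α and 6 HIF-2α libraries. The percentiles were 80.1 and 84.7 in A549 HIF-1α, 71.3 and 79.0 in A549 HIF-2α, 99.2 and 99.8 in HCT116 HIF-1α, 98.2 and 98.6 in HCT116 HIF-2α and 95.8 and 96.0 in PC3 HIF-1α. In PC3 HIF-2α it was 68.4 in replicate 2, with no peak in replicate 1. In T47D it was 82.8 and 81.4 with HIF-1α, and 81.8 in the only HIF-2α library with a peak. HCT116 thus gave the highest ranks with either antibody. The site lay 7136 bp from the nearest protein-coding start, that of RASSF7.

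NEAT1 (chr11:65188344-65191350) had peaks in 5 HIF-1α and 7 HIF-2α libraries, with median percentiles of 86.3 and 85.6. In A549 it ranked at 90.3 and 90.8 with HIF-2α, but at 13.4 in 1 HIF-1α library with no peak in the other. In HCT116 it ranked at 90.7 and 90.5 with HIF-1α and at 86.1 and 85.6 with HIF-2α. In T47D it ranked at 77.3 and 62.7 with HIF-2α, and at 20.5 in 1 HIF-1α library with no peak in the other. In PC3 it ranked at 86.3 with HIF-1α and 77.6 with HIF-2α, in replicate 2 of each. HIF-2α thus ranked higher in A549 and T47D, and HIF-1α in HCT116 and PC3. Its neighbour MALAT1, an abundant nuclear lncRNA, had 3 HIF-1α peaks and 0 HIF-2α peaks, at percentiles between 11.6 and 66.4.

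Of the remaining sites in 10 or more libraries that the naming rule took, ENSG00000261334 (chr9:132243204-132246491) had peaks of 7 libraries of each isoform, and its centre lay within 1000 bp of a start of LINC00963 as well. It ranked at 70.4 and 69.6 with HIF-1α in A549 and at 96.0 and 95.8 with HIF-2α. ENSG00000289405 had 8 HIF-1α and 5 HIF-2α libraries, with median percentiles of 91.0 and 44.5. ENSG00000289994 had 7 and 6, with medians of 43.1 and 79.4. LINC01275 had 8 and 3, ENSG00000289409 had 7 and 4, and ENSG00000289123 had 4 and 6 with none in T47D. No test was made on single sites, which were picked for their recurrence in these same lists.

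**Figure D5:**
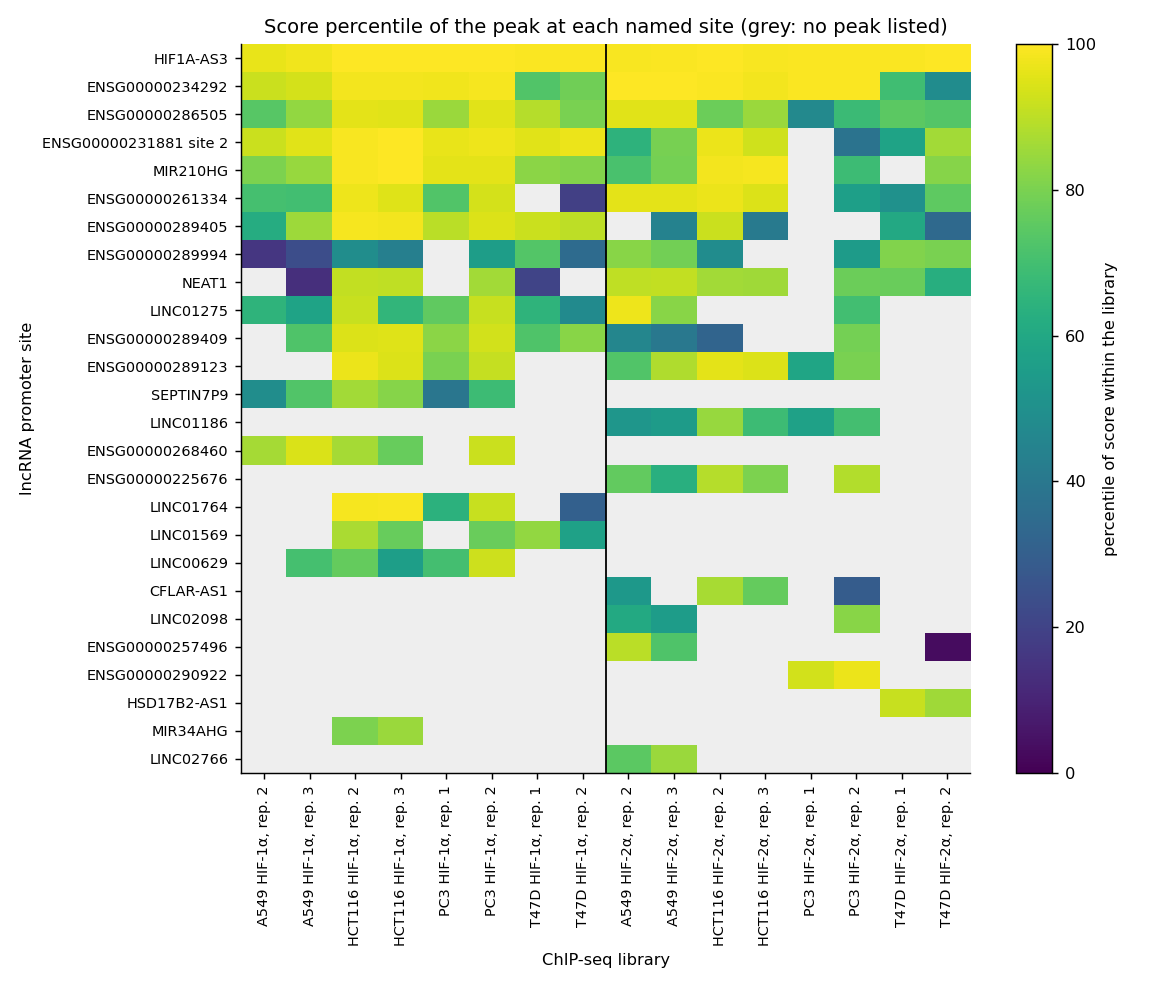
Score percentile within the library (colour) of the peak at 26 named lncRNA promoter sites (y axis) in the 8 HIF-1α libraries (left of the line) and the 8 HIF-2α libraries (right), with grey where no peak was listed. HIF1A-AS3 was above the 96th percentile in all 16, and sites in the lower rows had peaks of 1 isoform or 1 cell line.

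Some recurrent sites had peaks of HIF-1α only. SEPTIN7P9 (chr10:38690883-38692192) led these with 6 libraries, both of A549 (49.0 and 72.8), HCT116 (86.0 and 81.8) and PC3 (39.3 and 68.4). It is a pseudogene-type name, and whether reads of near-identical copies reached it is not known from the lists. ENSG00000268460 (5 libraries, percentiles 76.9 to 94.4) lay near IGFL1, an insulin growth factor-like gene. LINC01764 (5 libraries, 30.5 to 98.9) had the start of UCA1, a lncRNA known from bladder cancer, within 1000 bp too, and ranked at 98.6 and 98.9 in HCT116. LINC01569 and LINC00629 had 5 libraries each, at 57.1 to 87.3 and 56.1 to 92.5. Each of these 5 sites had peaks in 3 cell lines. At least 3 lines follow from their choice by number of libraries, as each line had 2 HIF-1α libraries.

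Other recurrent sites had peaks of HIF-2α only, whose lists were shorter than those of HIF-1α in 3 of 4 lines. LINC01186 (chrX:46186597-46187831) had 6, both replicates of A549 (52.6 and 54.8), HCT116 (84.6 and 68.4) and PC3 (57.1 and 70.0). ENSG00000225676 (chr22:30602359-30603673) had 5, at 62.9 to 89.0, and lay 39712 bp from LIF, the gene of the cytokine leukaemia inhibitory factor. CFLAR-AS1 (chr2:202014115-202015094) had 4 and lay within CFLAR, whose product inhibits caspase-8, on the opposite strand. LINC02098, whose nearest protein-coding start was that of the transcription factor ETS1, and ENSG00000257496 had 3 each. All 5 central windows of these sites held 0 matches to the core motif. Their whole merged sites held 1 match in LINC01186, 2 in ENSG00000225676 and ENSG00000257496, 3 in LINC02098 and 0 in CFLAR-AS1. At the 5 HIF-1α-only sites the central windows held 1 match in SEPTIN7P9 and ENSG00000268460, 2 in LINC01569 and LINC00629 and 0 in LINC01764. Whole merged sites there held 4, 2, 5, 8 and 1, in that order. Of all HIF-2α-only sites 45.4%, and of all HIF-1α-only sites 55.6%, held the motif in the central 200 bp.

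A single site stood for each cell line, as the best-ranked site with peaks in both replicates of a group and none in another line. They were LINC02766 in A549 (HIF-2α, 74.9 and 84.8), MIR34AHG in HCT116 (HIF-1α, 80.3 and 84.9), ENSG00000290922 in PC3 (HIF-2α, 93.1 and 97.1) and HSD17B2-AS1 in T47D (HIF-2α, 91.5 and 85.6). MIR34AHG is the host of miR-34a, a microRNA induced by p53. HSD17B2-AS1 is named for the gene of an enzyme that oxidises oestradiol. In 3 of the 4 lines the best such site was thus of HIF-2α, by percentiles within lists of unequal length. Numbers of sites with peaks in both replicates of a group and in no other library did not follow this. With HIF-1α and HIF-2α they were 0 and 11 in A549 and 40 and 1 in HCT116. PC3 had 11 and 1, and T47D had 2 and 2. Sites with no peak in another line were 61.5% of 309 in HCT116 (67.8% of all merged sites of that line), 40.7% of 216 in PC3 (45.9%), 33.9% of 112 in A549 (50.4%) and 43.8% of 64 in T47D (47.6%). The share was below that of all sites in each line, and no test was made.

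Several lncRNA genes had more than 1 bound start. LINC00511, a lncRNA linked to several cancers, had 3 sites on chromosome 17. The site at chr17:70633782-70637619 had 7 libraries, all from HCT116 or PC3, with percentiles of 73.6 to 98.0. The site at chr17:70418425-70419876 had 6, at 53.4 and 39.0 in A549 HIF-1α and 87.6 and 87.5 in A549 HIF-2α, and 2 of PC3. The third, at chr17:70461215-70462645, had 2. Different starts of this gene were thus bound in HCT116 and in A549. ENSG00000231881, DIRC3, LINC00887 and ENSG00000204876 had 2 sites each, and DIRC3 ranked at 92.4 and 94.2 in HCT116 HIF-1α at its stronger one.

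Of a list of 29 lncRNAs linked to hypoxia, 7 named a site (24.1%), and with UCA1 8 had a start within 1000 bp of a site centre. They were HIF1A-AS3, MIR210HG, NEAT1, LINC00511, MALAT1, KCNQ1OT1 and CASC9, the last with 1 HIF-2α library at the percentile 16.8. KCNQ1OT1, an imprinted antisense transcript that silences its neighbours, had the 2 HIF-1α libraries of HCT116. Of a list of 33 lncRNAs linked to cancer, 4 named a site (12.1%), namely DLEU2, LINC-PINT, PVT1 and DANCR, and HEIH had a start within 1000 bp of another. None of these had more than 3 libraries. Both lists hold many genes whose starts lie near protein-coding ones and could not have been members. The background, over the 13924 lncRNA genes with a start over 5000 bp from every protein-coding start, was 3.38%. The lists were chosen with earlier results of these data known, so these shares are no independent finding and were not tested. From the list of conserved HIF targets that the study drew up, MIR210HG was itself a site. The nearest protein-coding start of MRPL45P2 (5 HIF-1α and 2 HIF-2α libraries) was that of NPEPPS, at 30380 bp. For OLMALINC (3 and 3) it was that of SCD, at 26716 bp. These were 3 of the 485 sites (0.619%), and the share over all merged sites was not taken. A link of these sites to NPEPPS or SCD was not tested.

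A total of 22 of the 485 sites (4.54%), at 20 genes, belonged to lncRNAs that hold 32 annotated microRNA genes on their own strand, of which 27 had a mature sequence in the RefSeq table. No microRNA was found this way in MIR17HG, MIR29B2CHG or MIR663AHG, although these are named as hosts, so the count may be too low. Shown are mature strands of well-known microRNAs whose hosts had peaks in 4 or more libraries, with let-7b added because it shares the let-7 seed. Capitals mark the seed (bases 2 to 8), by which a microRNA recognises its targets.
miR-210-3p: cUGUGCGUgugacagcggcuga
miR-193b-3p: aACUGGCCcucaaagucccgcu
miR-365a-3p: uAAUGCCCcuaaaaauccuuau
let-7a-5p: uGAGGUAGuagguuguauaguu
let-7d-5p: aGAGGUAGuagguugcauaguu
let-7f-5p: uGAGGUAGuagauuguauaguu
let-7i-5p: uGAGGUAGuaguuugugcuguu
let-7b-5p: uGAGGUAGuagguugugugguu

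The 5 let-7 strands share the seed GAGGUAG and came from 3 hosts. MIRLET7A1HG, which holds let-7a-1, let-7d and let-7f-1, had 4 HIF-1α and 2 HIF-2α libraries, at 85.7 and 84.2 in HCT116 HIF-1α and at 34.4 to 71.2 in its other libraries. ENSG00000275180, host of let-7i, had 3 and 1. MIRLET7BHG, which holds let-7a-3 and let-7b, had 2 sites of HIF-1α alone. MIR193BHG, host of miR-193b and miR-365a, had 3 and 2. MIR34AHG and DLEU2, host of miR-16-1, had the 2 HIF-1α libraries of HCT116 and no other. MIR210HG had the most libraries of these hosts, 14, and was followed by ENSG00000289405, whose gene holds the miR-30b and miR-30d genes, with 13.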

How the data were processed

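Peak lists of 16 ChIP-seq libraries were analysed, 2 replicates of HIF-1α and of HIF-2α in each of 4 cell lines, grouped by their labels. The authors trimmed adapters with Trim Galore 0.3.3, aligned reads to GRCh37 with BWA 0.7.5a-r405, dropped poorly mapped reads (SAMtools 0.1.19), blacklisted regions (BEDTools 2.17.0) and duplicates (Picard 2.0.1), and called peaks with MACS against a control, each library on its own. The MACS version and the control are not given in the sources used here. Each peak carries a score deposited by the authors, 50.0 at the lowest, whose scale is not given and which was used here for rank and threshold only. The study's further filters were not part of these lists. Depth is unknown, so intervals cover the counting of peaks or sites only.

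Of 23398 peaks, 29 (0.124%) on other sequences than chromosomes 1 to 22, X and Y were left out. Distances ran from site centre to the nearest start in GENCODE release 44 lifted to GRCh37, counting lncRNA transcripts of lncRNA genes and protein-coding transcripts of protein-coding genes. A library's score percentile is the rank of a peak in its own list. MicroRNA sequences and names came from RefSeq (GRCh38.p14), without coordinates. Shares and medians per library were compared between isoforms by exchanging antibody labels within each cell line in every possible way, and between classes of site by flipping the sign of each library's (or group's) difference in every way, both two-sided and exact, with Benjamini-Hochberg adjustment over 11 tests at 0.05. That adjustment includes the share among peaks away from protein-coding starts, which was added after the data were seen, as was the subtraction of the motif share in windows with the same CpG number. Labels do not say whether replicates were separate cultures, so p-values measure the spread between these libraries, which may be technical. Replicate numbers were not used as pairs in the main tests. Over the sites of a line, the differences in peak presence between replicates correlated between the antibodies at -0.112 to 0.0742. These correlations of presence alone cannot show whether same-numbered libraries shared a preparation.

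Named were the 12 sites in the most libraries (ties by mean percentile), the 5 most recurrent of each isoform alone, the best site of each cell line alone, 5 genes with several sites, and genes of fixed lists or microRNA and snoRNA hosts. UCA1, HEIH, MRPL45P2, OLMALINC and ENSG00000275180 were named after their values were seen. The sites and lists were chosen with earlier results of these data known. Alternatives comprised score thresholds, overlap, starts, distances, motif windows, replicate pairing, groups as units, and leaving out each library or line. Python 3.11.15, numpy 2.4.6, pysam 0.24.0 and matplotlib 3.10.9 were used, and the functions were tested on simulated data.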

Additional observations from a re-analysis of the deposited data

Results flagged for a closer look

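Isoform differences in opposite directions were seen in different cell lines for 2 measures, with no overlap between the antibodies' libraries within a line. These contrasts between lines were not tested, and each line has 2 libraries per antibody. The share of member peaks with the core motif was 83.1% ± 4.32 with HIF-1α and 55.2% ± 8.16 with HIF-2α in A549, whereas it was 65.8% ± 5.98 with HIF-1α and 85.7% ± 13.1 with HIF-2α in T47D (mean ± SD, n = 2 each). The isoform difference of A549 exceeded that of T47D by 47.9 percentage points. The T47D HIF-2α libraries held only 17 and 20 member peaks and the A549 HIF-1α libraries 20 and 36. The mean number of CpG in the central 200 bp of member peaks moved with it in A549, at 12.2 and 16.6 with HIF-1α against 7.76 and 10.4 with HIF-2α, but not in T47D, at 14.5 and 16.6 against 10.2 and 12.3. Its part in the result was not tested for single lines.

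The median score percentile of member peaks was higher with HIF-1α in A549 (56.2 to 63.6 against 53.8 to 54.4). It was lower with HIF-1α in HCT116 (48.0 to 54.5 against 64.7 to 68.4) and in T47D (49.5 to 51.1 against 58.2 to 66.5). The isoform difference of A549 exceeded that of HCT116 by 21.1 percentile points and that of T47D by 17.8. In A549 the HIF-2α lists are the longer ones and in the other lines the HIF-1α lists, and the part of list length was not tested.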

How the results depend on the processing

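The 2 isoform contrasts that passed, the lncRNA share of promoter peaks and of peaks away from protein-coding starts, kept their direction and passed under all 30 alternatives each, between -15.3 and -9.50 and between 6.76 and 9.80 percentage points. When labels were exchanged only between same-numbered libraries of a line, both still passed (exact permutation p = 0.00781 each, the smallest that scheme can give). No other call changed. The differences of -12.9 and 7.71 cannot change under this scheme. Whether the same replicate number marks a pair is not known.

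The rest depended on the settings as follows, and where no cause is named it was not tested. With peaks at or above the median score, 248 sites were left. The member share differed by -1.35 points between isoforms and passed, and the differences from distal peaks no longer passed for rank (4.37), motif (4.19) and recovery (3.62). With the 272 best peaks per library, 79 sites were left, the isoform difference in rank was -12.2 and passed, the motif difference from protein-coding promoters reversed to 5.78 and passed in that direction (exact permutation p = 0.0405), and rank (1.61) and recovery (5.92) against distal peaks no longer passed. The isoform difference in member share passed with a reciprocal overlap of 50% (-0.562), all transcripts (-0.590), an lncRNA limit of 2000 bp (-0.906), a protein-coding minimum of 10000 bp (-0.701), each peak classed by its own centre (-0.563) and without T47D (-0.831). It reversed with 1 start per gene (0.803) and a limit of 500 bp (0.250). The isoform difference in rank passed with 1 start per gene (-8.01), limits of 500 bp (-4.55) and 2000 bp (-5.47) and without A549 (-9.55). Against protein-coding promoters, rank reversed with the 2000 bp limit (-1.68) and without A549 (-0.377), and recovery passed with 1 start per gene (4.89) and reversed with the 2000 bp limit (-0.732). Recovery against distal peaks no longer passed without A549 (15.5), HCT116 (10.5) or T47D (14.0), when only 6 groups remain. Without HCT116, 294 sites were left. With the whole peak searched, the motif differences from protein-coding promoters (-3.02) and between isoforms (5.97) passed, and with ACGTG only the former reversed (1.56). Above CpG-matched windows the 3 motif differences were 4.65 from protein-coding promoters and -0.871 between isoforms, both reversed, and 3.93 from distal peaks, no longer passing. The isoform difference in motif share also reversed without A549 (-3.30).

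Leaving out each library in turn gave -0.693 to -0.402 for the isoform difference in member share, which passed without replicate 3 of A549 HIF-1α, replicate 2 of HCT116 HIF-1α, replicate 1 of T47D HIF-1α or replicate 1 of T47D HIF-2α. It gave -7.06 to -4.71 for that in rank, which passed without replicate 2 of A549 HIF-1α, and 1.70 to 5.04 for recovery against protein-coding promoters, which passed without either replicate of T47D HIF-1α. No other call changed. Of 60 named sites, 29 remained members among the 272 best peaks and 43 with 1 start per gene. The HIF-1α-only and HIF-2α-only shares of the sites moved beyond their Wilson intervals in 7 of 29 alternatives each, farthest with the 272 best peaks per library, to 25.3% and 46.8%, and the share in 4 cell lines did so in 5, of which 4 left out a line.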

Other observations

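Small nucleolar RNA hosts, whose introns carry guides of RNA modification, named 5 sites. SNHG7 had peaks in 4 HIF-1α and 2 HIF-2α libraries, at percentiles between 32.4 and 84.7, and SNHG28 in 3 HIF-1α libraries. SNHG15, SNHG5 and SNHG17 had 1 HIF-1α library each, at 60.7, 17.6 and 17.1. None of these 5 had peaks of HIF-2α alone, a kind that made up 24.5% of the 485 sites and 25.2% of all merged sites. A set of 5 sites is too small to differ from that share.

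Pseudogene-type symbols named 14 of the 485 sites (2.89%), among them SEPTIN7P9. The lists do not say how reads of near-identical copies were placed.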
